A study of Mus musculus with 2 samples.

Results

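The immediate early genes are examined here in laser capture microdissection (LCM) RNA-seq of the mouse brain at embryonic day 16.5. The genes were picked by symbol: *Fos*, *Fosb*, *Jun*, *Junb*, *Egr1*, *Arc*, *Npas4*, *Ier2*, *Nr4a1* and *Dusp1*. All 10 were found among the 24411 genes of the deposited counts. Of these 10, 5 reached a mean of 1 CPM (reads per 1000000 gene-assigned reads) over both libraries. The data hold 2 libraries of brain tissue with no treatment named, 1 from the subventricular zone (SVZ), the germinal layer beside the lateral ventricles, and 1 from the cortex, where newborn neurons settle, and served the study as a reference for profiles barcoded with light in the same areas. Per the labels, embryos were cooled on ice and decapitated, heads were frozen, and the areas were cut with a laser from cryosections stained with haematoxylin and eosin. Mouse strain, genotype, the number of embryos behind each library, and the time from death to freezing are not stated in the labels or methods.

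Immediate early genes are switched on by growth factors, neuronal activity or stress without the need for new protein. Signals through MAP kinases and calcium reach factors that already sit at their promoters, chiefly serum response factor with its partners and CREB. Their transcripts are short-lived. Many encode transcription factors, such as the Fos and Jun proteins that pair as AP-1. Others act directly, such as Arc at synapses or Dusp1, which removes phosphate from MAP kinases and so closes a feedback loop. In the adult brain they are widely used as marks of recently active neurons.

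Gene-assigned reads came to 51435667 for SVZ and 22050693 for cortex, a 2.33-fold difference in depth, and the names of the areas stand for these 2 libraries from here on. There was no replicate, so no test was made. Intervals are exact 95% intervals that cover counting error only, since PCR copies without molecular identifiers are not independent molecules. At this depth 86.8% of the 12738 genes compared (mean of 1 CPM or more) had an interval that left out equal CPM, so such an interval separates these libraries and not the areas in general. Progenitor and neuronal markers separated the 2 libraries, but they do not show where within the germinal tissue the SVZ cut lay. All 8 apical progenitor and all 4 intermediate progenitor markers were 2-fold or more higher in SVZ, and all 10 neuronal markers were higher in cortex, 6 of them at least 2-fold. In bulk tissue, fewer cells of a type and less RNA per cell cannot be told apart, which holds for every ratio given here.

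The immediate early genes fell into 3 classes of level. *Jun*, *Ier2* and *Dusp1* had more than 100 reads in both libraries and made up 99.1% of the 13038 reads of the whole set in SVZ and 95.9% of the 2965 in cortex. *Fos*, *Junb*, *Egr1*, *Arc* and *Nr4a1* had at most 60 reads in either library. *Fosb* and *Npas4* had no read in either. Thus *Fos*, *Fosb*, *Egr1*, *Arc* and *Npas4*, the genes most used as marks of neuronal activity, stayed under 2 CPM in both areas. The levels of the set summed to 253 CPM in SVZ and 134 CPM in cortex, and these sums describe mainly the 3 well expressed genes.

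**Figure D1:**
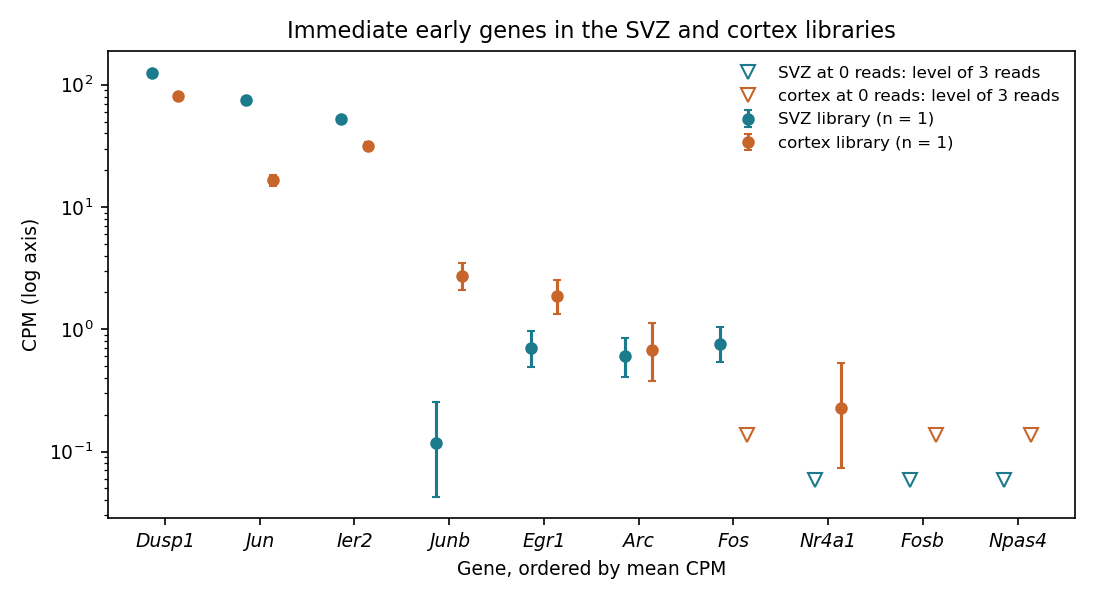
Level of each immediate early gene in CPM (vertical axis, log scale) in SVZ and cortex, 1 library each, with exact 95% Poisson intervals of the reads. *Dusp1*, *Jun* and *Ier2* lie between 16.5 and 124 CPM, the other detected values lie under 3 CPM, and open triangles mark the level of 3 reads for genes with no read.

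The subunits of AP-1 were taken first. Fos proteins bind DNA only with a Jun partner, whereas Jun proteins can also pair with each other. *Jun* (GRCm38 chromosome 4, 95049036 to 95052222) had 3854 reads in SVZ and 364 in cortex, or 74.9 and 16.5 CPM. Its CPM was 4.54-fold higher in SVZ (interval 4.08 to 5.07), a log2 ratio of 2.18, and 90.7% of all genes compared had a lower ratio. *Jun* was the 1 member with a mean of at least 1 CPM that was 2-fold or more higher in SVZ, a direction in which 20.0% of all genes compared passed 2-fold.

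*Fos* (chromosome 12, 85473890 to 85477274), the partner most used as an activity mark, had 39 reads or 0.758 CPM in SVZ and 0 reads in cortex. With the 0 reads in cortex set at 3, or 0.136 CPM, *Fos* was 5.57-fold higher in SVZ, and its counting interval reached down to 4.32-fold. It stayed under a mean of 1 CPM and does not enter the count above. *Fosb* (chromosome 7, 19302696 to 19310118), its close relative, had 0 reads in both, with limits of 0.0583 CPM for SVZ and 0.136 CPM for cortex. No ratio can be given for it.

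*Junb* (chromosome 8, 84976909 to 84978748), a Jun protein that often opposes the growth-promoting action of Jun, showed the reverse order. It had 6 reads in SVZ and 60 in cortex, or 0.117 and 2.72 CPM. Its CPM was 23.3-fold higher in cortex, with a wide interval of 10.1 to 66.1 since the SVZ side rests on 6 reads. With 1 CPM added to both levels its log2 ratio was -1.74 in place of -4.54, and that of *Fos* was 0.81 in place of a bound of 2.48. Only 1.63% of all genes compared had a lower ratio than *Junb*. *Jun* and *Junb* therefore lay on opposite sides of equal CPM, both with intervals past 2-fold. Among members with a mean of at least 1 CPM these were also the ones past 4-fold, a fold that 10.2% of all genes compared passed towards SVZ and 7.01% towards cortex.

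Between genes, levels were compared per kilobase of transcript. *Jund*, the Jun family member that is expressed without a stimulus in most cells and belongs to the relatives listed for comparison, had 15.1 CPM per kilobase in SVZ and 16.4 in cortex. Its CPM differed by 1.08-fold, with an interval of 0.983 to 1.20 that includes equality. *Jun* had 23.5 and 5.18 CPM per kilobase. In SVZ *Jun* was thus 1.56 times as high as *Jund* (interval 1.46 to 1.66), and in cortex *Jund* was 3.16 times as high as *Jun* (2.77 to 3.61). Each of these ratios lies within 1 library and so does not depend on the scaling between libraries. The ratios, and the AP-1 shares that follow, do depend on the transcript lengths used, 3189 bases for *Jun* and 1668 for *Jund*. The intervals leave out error in these lengths. The RefSeq span of *Jund* (chromosome 8, 70697739 to 70700616) is longer than 1668 bases, and a longer transcript would lower its level per kilobase in both libraries. Of the summed AP-1 level over 7 Fos and Jun genes, *Jun* held 60.0% in SVZ and 21.4% in cortex, *Jund* 38.5% and 67.6%, *Junb* 0.165% and 6.21%, and *Fos* 0.919% in SVZ. *Fosl2*, a Fos relative, had 49 and 169 reads, or 0.953 and 7.66 CPM, and was 8.05-fold higher in cortex (5.82 to 11.3). Thus the only Fos-family transcripts with a ratio were on opposite sides, *Fos* towards the SVZ and *Fosl2* towards the cortex.

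The promoters of *Fos*, *Jun* and *Junb* are shown because these genes diverged in level and direction, with *Dusp1* added as the most highly expressed member of the set. The bases before each RefSeq start (GRCm38.p6) are printed 5′ to 3′ on the strand of the gene, without bases that lie in an exon annotated by GENCODE. Capitals mark TGACG (the core of the CREB site), TGACGTCA (the full CREB site, which contains TGACG on both strands) and TATAAA, and in *Jun* TGACATCA and the MEF2 site. The last pair, known in *Jun* as places where Jun with ATF proteins and MEF2 factors bind, was looked for after the sequence had been read.
Fos, chr12:85473640-85473889, plus strand: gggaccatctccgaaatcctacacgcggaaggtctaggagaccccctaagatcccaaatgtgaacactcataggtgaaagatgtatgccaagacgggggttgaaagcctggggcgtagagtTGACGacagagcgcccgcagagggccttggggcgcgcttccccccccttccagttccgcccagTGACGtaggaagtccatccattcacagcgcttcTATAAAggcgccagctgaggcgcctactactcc
Jun, chr4:95052223-95052472, minus strand: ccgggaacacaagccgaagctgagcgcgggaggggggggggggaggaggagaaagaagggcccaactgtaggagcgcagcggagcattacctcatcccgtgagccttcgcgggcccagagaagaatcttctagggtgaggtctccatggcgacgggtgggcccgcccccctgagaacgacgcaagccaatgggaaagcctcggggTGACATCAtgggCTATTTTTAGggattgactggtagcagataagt
Junb, chr8:84978749-84978998, minus strand: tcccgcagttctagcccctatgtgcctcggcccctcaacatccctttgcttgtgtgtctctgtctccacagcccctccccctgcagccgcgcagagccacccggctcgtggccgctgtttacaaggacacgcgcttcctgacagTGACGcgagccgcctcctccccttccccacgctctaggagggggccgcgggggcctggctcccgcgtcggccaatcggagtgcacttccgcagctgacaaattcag
Dusp1, chr17:26508520-26508722, minus strand: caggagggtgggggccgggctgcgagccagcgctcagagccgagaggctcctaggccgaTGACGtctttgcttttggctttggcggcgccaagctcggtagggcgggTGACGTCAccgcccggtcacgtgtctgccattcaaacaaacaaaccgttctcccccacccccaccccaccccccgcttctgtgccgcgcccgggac

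RefSeq windows of 300 bases, 250 before and 50 after the start, were found for 7 of the 10 genes, not for *Egr1*, *Arc* and *Ier2*. Those of *Fosb*, *Npas4* and *Nr4a1* begin within the RefSeq span of the gene, so their positions refer to an inner start and they are not printed. Positions are those of the leftmost base on the gene's strand, counted from 1 at the start, with bases before it negative. TGACG was present on either strand in 6 of the 7 windows, against 20.8% of all 32851 windows. In *Fos* it stood at -129 and -66, in *Fosb* at -60 and in *Junb* at -106. The full TGACGTCA was found in *Dusp1* alone, at -143, and in 1.79% of all windows. *Jun* was the 1 member of the 7 without TGACG. It carried TGACATCA at -45, found in 3.62% of all windows, and a MEF2 site at -33, found in 3.19%. TATAAA stood at -33 in *Fos* and at 1 in *Junb*, outside the printed bases, and 13.6% of all windows held it. GCGGGGGCG, a site for Egr proteins, stood at -50 in *Fosb* and at -60 in *Nr4a1*, against 2.91% of all windows. The CArG box, the core bound by serum response factor, matched in none of the 7 windows and in 1.63% of all windows, and TGACTCA, the AP-1 site, in none of the 7 and in 5.20%. A match describes letters in the window and is not evidence of binding, and a missing match says only that these letters are not within the window.

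The other transcription factors of the set were low. *Egr1* (chromosome 18, 34861207 to 34864956), a zinc finger factor induced by growth factors and synaptic activity, had 36 reads in SVZ and 41 in cortex, or 0.700 and 1.86 CPM. It was 2.66-fold higher in cortex (interval 1.66 to 4.28, which reaches below 2-fold). *Junb* and *Egr1* were the 2 members with a mean of at least 1 CPM that were 2-fold or more higher in cortex, a direction in which 15.6% of all genes compared passed 2-fold. Both had a mean of under 2 CPM and passed the minimum through the cortex side, so the count is a description. *Egr3*, a relative of *Egr1*, had 31 reads in SVZ and 1 in cortex, 13.3-fold higher in SVZ with an interval of 2.21 to 542, and *Egr2* and *Egr4* had none in either.

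*Nr4a1* (chromosome 15, 101253902 to 101274795), an orphan nuclear receptor induced in neurons and immune cells, had 0 reads in SVZ and 5 in cortex. Set against a floor of 3 reads in SVZ, it was 3.89-fold higher in cortex, but the counting interval of those 5 reads reached down to 2.14-fold. After SVZ was thinned to the depth of cortex, the log2 bound of *Nr4a1* was -0.74 in place of -1.96. Its relatives had more reads. *Nr4a2*, a factor of dopaminergic neurons and of the cortical subplate, had 277 and 665 reads, or 5.39 and 30.2 CPM, and was 5.60-fold higher in cortex (4.86 to 6.47). *Nr4a3* had 0 reads in SVZ and 704 reads, or 31.9 CPM, in cortex. Against the floor of 3 reads it was 547-fold higher in cortex, with a counting interval that reached down to 444-fold. Per kilobase *Nr4a1* made up 0.629% of the Nr4a level in cortex, *Nr4a2* 59.8% and *Nr4a3* 39.5%. *Npas4* (chromosome 19, 4984353 to 5003439), a factor that in neurons is induced by calcium entry and hardly by other signals, had 0 reads in both libraries, with the same limits as *Fosb*.

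*Ier2* (chromosome 8, 84661331 to 84662852), a nuclear protein induced by serum and growth factors, had 2696 reads in SVZ and 697 in cortex, or 52.4 and 31.6 CPM. It was 1.66-fold higher in SVZ (1.53 to 1.80), less than 2-fold, and 74.2% of all genes compared had a lower ratio. Its relative *Ier5* went the other way, with 1780 and 1528 reads, or 34.6 and 69.3 CPM, and was 2.00-fold higher in cortex (1.87 to 2.15). Per kilobase *Ier2* was 3.26 times as high as *Ier5* in SVZ (3.07 to 3.46), whereas in cortex the interval of that ratio, 0.896 to 1.07, included equality. *Ier3*, an early gene tied to cell survival, had 34 and 50 reads and was 3.43-fold higher in cortex (2.18 to 5.47), and *Ier5l* had 33 and 27 reads.

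*Arc* (chromosome 15, 74669081 to 74672570), which acts at synapses and is a standard mark of active neurons, had 31 reads in SVZ and 15 in cortex, or 0.603 and 0.680 CPM. With a log2 ratio of -0.17 and an interval of -1.11 to 0.82, no difference in *Arc* could be detected at this depth. Its higher read count in SVZ went with the greater depth of that library.

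*Dusp1* (chromosome 17, 26505591 to 26508472), the nuclear phosphatase that switches off p38, JNK and ERK kinases, was the most highly expressed member in both libraries. It had 6376 reads in SVZ and 1783 in cortex, or 124 and 80.9 CPM, and was 1.53-fold higher in SVZ (1.45 to 1.62), which is within 2-fold. Per kilobase it lay above 90.1% of 16056 genes in SVZ and 87.1% in cortex. *Dusp1* and *Ier2* kept nearly the same proportion to each other, 1.81 per kilobase in SVZ (1.73 to 1.89) and 1.96 in cortex (1.79 to 2.14). *Jun* did not keep its proportion to *Dusp1*, which was 2.65 times as high as *Jun* in SVZ (2.55 to 2.76) and 7.85 times in cortex (7.01 to 8.81).

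**Figure D2:**
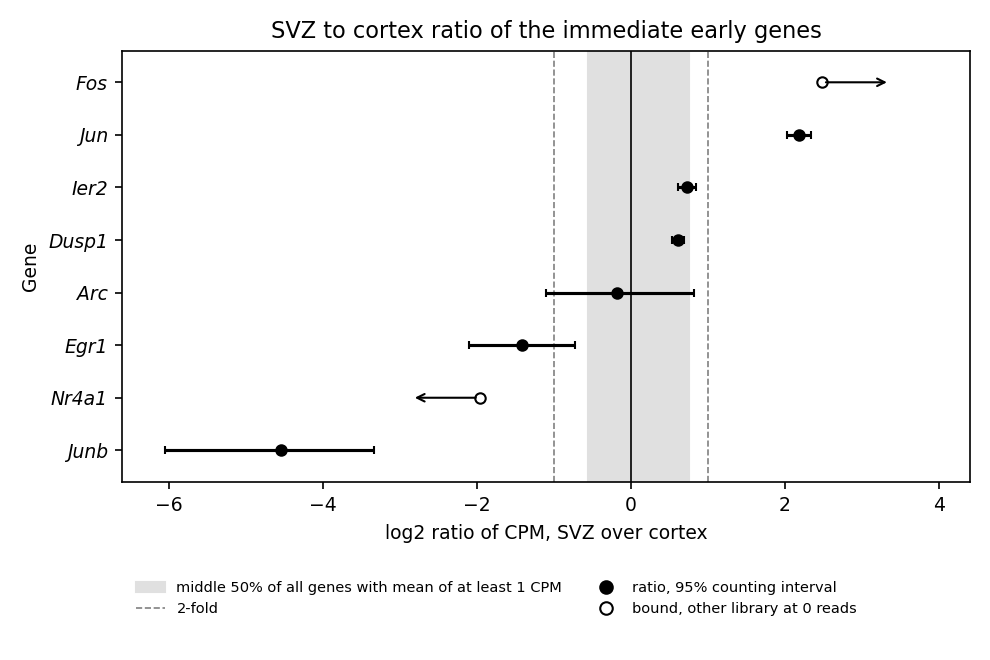
Log2 ratio of CPM, SVZ over cortex (horizontal axis), for the 8 immediate early genes with a ratio. Filled points carry exact 95% counting intervals, open points with arrows are bounds against a library with no read, dashed lines mark 2-fold and the grey band the middle 50% of all 12738 genes compared (-0.56 to 0.76). *Fos* and *Jun* lie to the right of 2-fold, *Junb*, *Nr4a1* and *Egr1* to the left, and *Ier2*, *Dusp1* and *Arc* between the lines.

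The other MAP kinase phosphatases separated the areas more than *Dusp1* did. *Dusp6*, the cytoplasmic phosphatase of ERK and a known readout of ERK signalling, had 460 reads in SVZ and 4028 in cortex, or 8.94 and 183 CPM. It was 20.4-fold higher in cortex (18.5 to 22.5). Per kilobase *Dusp1* was 19.5 times as high as *Dusp6* in SVZ (17.7 to 21.5), and *Dusp6* was 1.61 times as high as *Dusp1* in cortex (1.52 to 1.70). *Dusp8* (34.5 and 110 CPM) was 3.18-fold and *Dusp7* (3.95 and 9.66 CPM) 2.45-fold higher in cortex. *Dusp2*, an inducible nuclear phosphatase, had 0 reads in SVZ and 48 in cortex. Against the floor of 3 reads it was 37.3-fold higher in cortex, with a counting interval that reached down to 29.2-fold. On the SVZ side, *Dusp10* had 14.5 and 0.907 CPM and was 16.0-fold higher, *Dusp16* had 1285 and 45 reads and was 12.2-fold higher, and *Dusp4* had 10.3 and 1.04 CPM and was 9.86-fold higher. *Dusp10* and *Dusp16* are known to act on p38 and JNK. *Dusp5* and *Dusp9* had no read in either library.

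**Figure D3:**
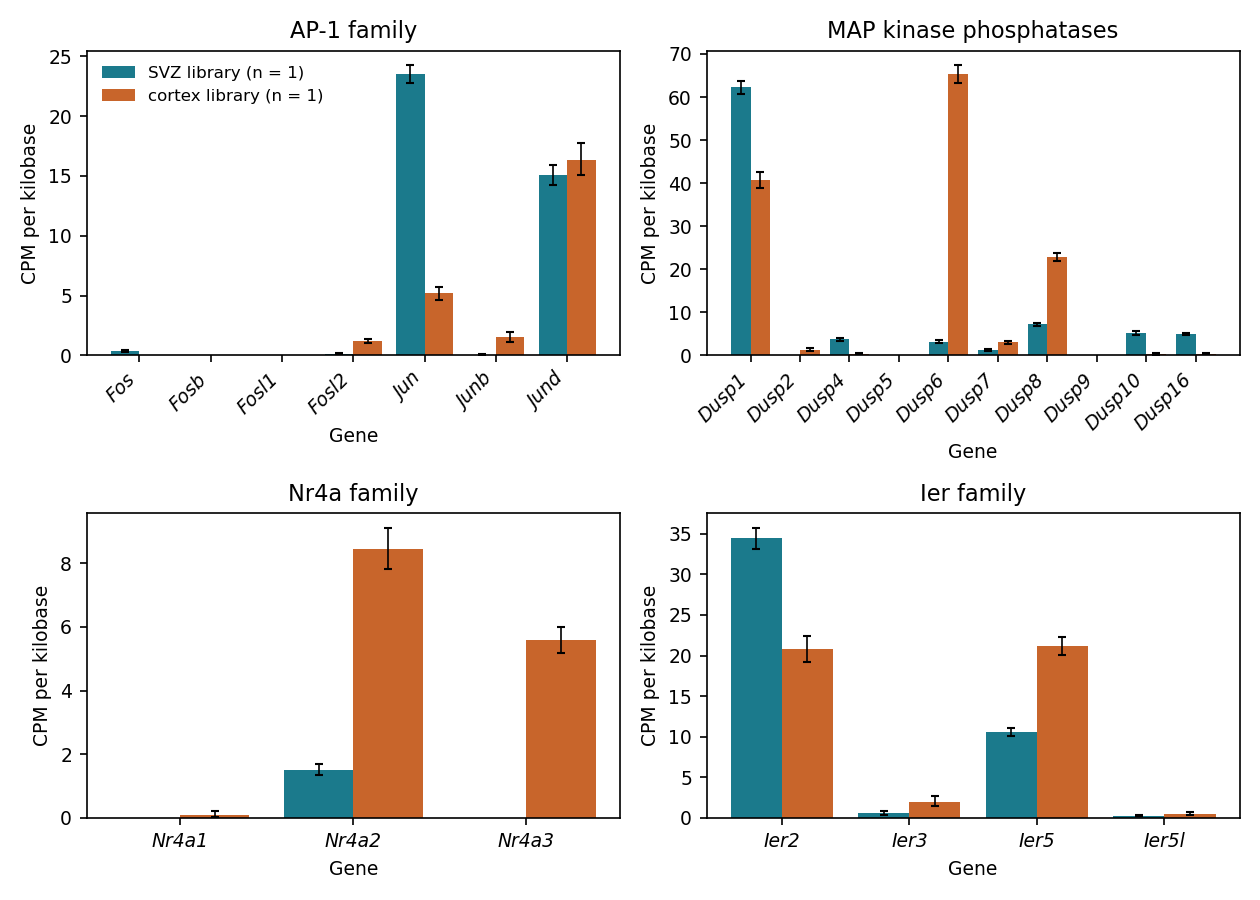
Level per kilobase of transcript (vertical axes, CPM per kilobase, from 0) of the members and their relatives in 4 gene families, in SVZ and cortex (1 library each), with exact 95% Poisson intervals where a read was found. *Jun* exceeds *Jund* in SVZ and *Jund* exceeds *Jun* in cortex, *Dusp6* exceeds *Dusp1* in cortex alone, and *Nr4a1* is near 0 beside *Nr4a2* and *Nr4a3*.

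Lists of related genes were then described beside the set. Among 24 family relatives of the members, 14 had a mean of at least 1 CPM, of which 4 (28.6%) were 2-fold or more higher in SVZ and 9 (64.3%) in cortex, beside 20.0% and 15.6% of all genes compared, with a median log2 ratio of -1.48 against 0.11 over all genes compared. The fourth SVZ gene besides the phosphatases was *Batf3*, an AP-1-related factor of dendritic cells and lymphocytes (265 and 5 reads, 22.7-fold, interval 9.61 to 70.6). *Batf3* and *Dusp10* towards SVZ, and *Nr4a3*, *Dusp2*, *Fosl2* and *Ier3* towards cortex, had under 1 CPM in the other library. These genes passed the minimum through the side where they were high, so the shares and median of the relatives are a description. Some genes of the lists below, such as *Cyr61* and *Sik1*, passed in the same way. For the 5 members over the minimum the median log2 ratio was 0.62, and for the 8 members with a ratio, bounds included, it was 0.22. *Atf3* and *Batf* were under the minimum, with 23 and 10 reads in SVZ and 4 and 0 in cortex, *Jdp2* had 2 reads in each, and *Fosl1* had none.

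Of 33 other early response genes, 30 passed the minimum, 6 (20.0%, the share of all genes compared) were 2-fold or more higher in SVZ and 9 (30.0%, beside 15.6%) in cortex, and their median log2 ratio was -0.09. On the SVZ side *Cyr61*, a secreted matrix protein induced by serum and by YAP, had 4223 and 13 reads and was 139-fold higher (81.4 to 262). *Gadd45g*, a growth arrest gene of newborn neurons, had 17531 and 321 reads and was 23.4-fold higher, and *Zfp36l1*, which promotes mRNA decay, was 8.69-fold higher. On the cortex side *Plk2*, a kinase that weakens synapses after activity, had 4366 and 35132 reads and was 18.8-fold higher (18.2 to 19.4). *Sgk1*, a kinase induced by serum and glucocorticoids, was 11.6-fold higher and *Sik1*, a CREB-induced kinase, 7.44-fold higher.

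A list of other genes that neurons induce with activity, called later activity genes here, was then described. The name is only a label for the list, since the time of induction was not measured. Of 10 genes, 6 passed the minimum, of which 5 (83.3%, beside 15.6% of all genes compared) were 2-fold or more higher in cortex and 1 (16.7%, beside 20.0%) in SVZ, with a median log2 ratio of -2.92. *Inhba*, an activin subunit, had 72 and 1399 reads and was 45.3-fold higher in cortex. *Scg2*, a granin of secretory vesicles, was 30.3-fold higher, and *Syt4*, a vesicle protein, had 202 and 1914 CPM and was 9.46-fold higher. *Nrn1*, a membrane protein that promotes neurite growth, was the exception, with 145 and 20.1 CPM, 7.20-fold higher in SVZ.

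All 27 upstream regulators passed the minimum, each with at least 35 reads in either library. Of these, 3 (11.1%, beside 20.0% of all genes compared) were 2-fold or more higher in SVZ and 7 (25.9%, beside 15.6%) in cortex, with a median log2 ratio of -0.44. *Srf*, which encodes serum response factor, had 4.12 and 8.57 CPM (2.08-fold higher in cortex, 1.70 to 2.54), while *Creb1* had 184 and 142 CPM and was within 2-fold. *Elk3*, an ETS partner of serum response factor, was 9.13-fold, *Atf1*, a CREB relative, 2.38-fold and *Crtc3*, a CREB coactivator, 2.17-fold higher in SVZ. *Mef2c*, an activity-regulated factor of cortical neurons, had 72.8 and 2435 CPM and was 33.5-fold higher in cortex. The calcium-dependent kinase *Camk4* was 4.93-fold and *Rps6ka4*, which phosphorylates CREB and histone H3, 4.82-fold higher there. *Srf* and *Creb1* were chosen for description after their values were seen.

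The listed heat shock and chaperone genes that passed the minimum lay mostly close to equality. Of 12 genes, 9 passed the minimum, 8 of them within 2-fold, with a median log2 ratio of 0.14. The 1 gene past 2-fold (11.1%, beside 20.0% of all genes compared towards SVZ) was *Hspe1*, a mitochondrial chaperonin (176 and 87.7 CPM, 2.00-fold higher in SVZ, interval 1.91 to 2.10), which came under 2-fold with TMM or upper-quartile scaling and in the sum of the stranded columns. *Hspa5*, the chaperone of the endoplasmic reticulum, was 1.83-fold and *Hspd1* 1.28-fold higher in SVZ, and *Dnaja1* 1.25-fold higher in cortex. The inducible *Hspa1a* and *Hspa1b*, near-identical copies whose shared reads STAR leaves out, had 20 and 2 reads in SVZ and 3 and 0 in cortex. *Hspb1* had 45 and 11 reads, and these genes were under the minimum. *Hspa1a* was 2.86-fold (0.848 to 15.0) and *Hspb1* 1.75-fold (0.893 to 3.76) higher in SVZ, with intervals that include equality. Whether stress of handling differed between the areas was not tested.

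**Figure D4:**
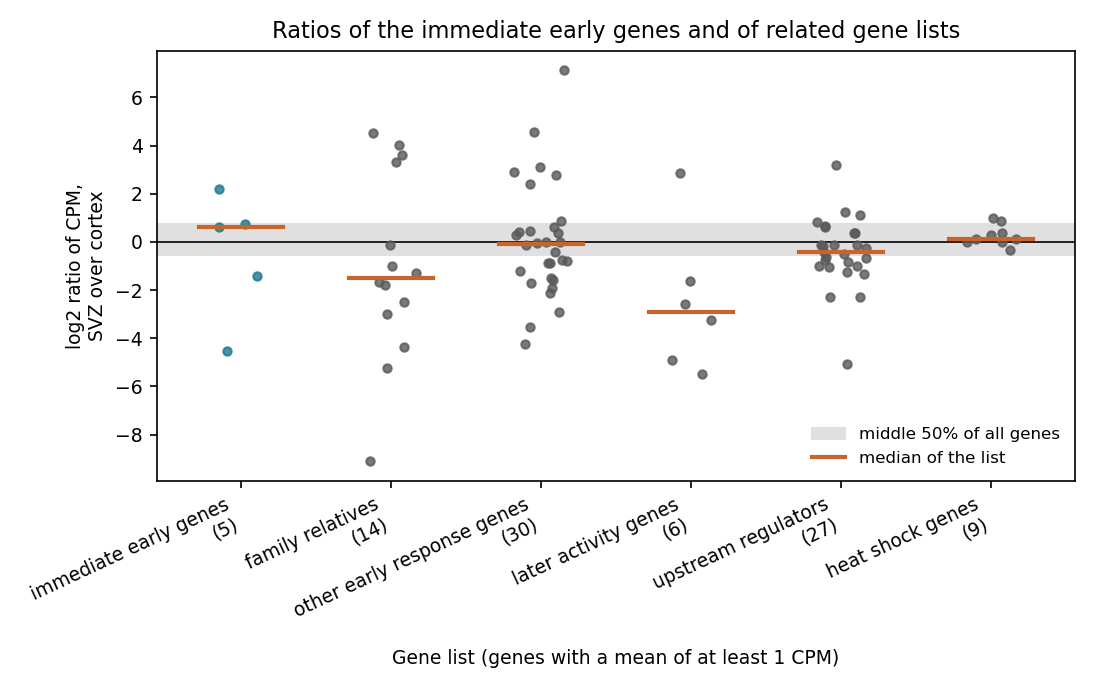
Log2 ratio of CPM, SVZ over cortex (vertical axis), of each gene with a mean of at least 1 CPM in the immediate early set and in 5 related lists (number of genes in brackets), with the median of each list as a line and the middle 50% of all genes compared as a grey band. The 5 plotted immediate early genes run from -4.54 to 2.18, the later activity genes lie low except *Nrn1*, and the heat shock genes lie near 0; genes without a read in a library are plotted at their bound.

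Markers of other cells that can express immediate early genes were also measured. All 10 microglial markers were higher in SVZ, 9 of them at least 2-fold, none was at 0, and they summed to 113 CPM there and 33.4 CPM in cortex. Of 10 blood vessel markers 9 were within 2-fold, none was at 0, and the sums were 164 and 124 CPM. Meningeal markers summed to 4.26 and 6.30 CPM over 6 genes, with *Foxd1* at 0 in both libraries and *Col1a1* at 0 and 2 reads. Erythroid markers summed to 20.5 and 10.9 CPM over 8 genes, with the globins *Hba-a1*, *Hba-a2*, *Hbb-bs* and *Hbb-bt* at 0 in both. All 5 interneuron markers were higher in SVZ, 1 at least 2-fold, with sums of 98.6 and 63.4 CPM. The choroid plexus markers summed to 243 and 0.726 CPM over 3 genes, nearly all of it *Ttr*, with *Kl* at 0 in both. The 8 apical progenitor markers summed to 6529 CPM in SVZ and 130 CPM in cortex, and the 10 neuronal markers to 3820 and 8645 CPM. The part of these cell types in the ratios of *Jun*, *Fos*, *Junb* and the other members was not tested.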

How the data were processed

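RNA-seq after LCM was available for 1 SVZ and 1 cortex library. The authors removed adapters with cutadapt 4.1, mapped read 1 to mm10 (the same assembly as GRCm38) with STAR 2.7.9a and deposited its reads per gene as raw counts, in 1 unstranded and 2 stranded columns per library. STAR leaves out reads that map to several places or overlap more than 1 gene, so such genes are undercounted. The libraries keep no strand (49.6% and 49.7% of stranded reads in the first of those columns), so antisense reads cannot be told apart. For all 10 members the stranded columns summed to the unstranded count. A merged table with the authors' CPM, fold changes and log10 ratios was not used here.

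CPM was computed on the sum of gene rows of the unstranded counts. Where a library had 0 reads it was set at 3, giving a bound that leaves out counting error in the other library. Pairs of counts of 3 or less got no ratio. Ratios carry exact Clopper-Pearson 95% intervals and levels exact Poisson intervals, both for counting error only. Genes with a mean of 1 CPM or more were compared at a fold of 2. With 1 library per area there was no test. Levels per kilobase used the principal transcript of GENCODE M21, found for 96.1% of detected genes. Positions and promoters came from RefSeq on GRCm38.p6. The members, lists and rules were chosen with earlier results of these data known. The text names all members, their family relatives and, from each other list of related genes, the 3 genes per direction whose interval end nearer to equality was farthest out. *Srf*, *Creb1*, *Hspa1a*, *Hspa1b* and *Hspb1* were named outside this rule. The alternatives rescaled the libraries (size factors of DESeq2 1.42.0, the TMM and upper-quartile methods of edgeR 4.0.16, or totals lacking the 10 highest genes), used the sum of both stranded columns, thinned SVZ to the depth of cortex, added a pseudocount of 1 CPM, or changed the minimum or the fold. Python 3.11.15, numpy, scipy and R 4.3.3 were used, and the code was tested on simulated data.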

Additional observations from a re-analysis of the deposited data

Results flagged for a closer look

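*Fosl1*, a Fos relative, had 0 unstranded reads in SVZ and in cortex, but the stranded columns, which entered the comparisons only as an alternative, held 9 reads for it in the SVZ library, above the limit of 3 reads, and 3 in the cortex library. Whether these reads belong to *Fosl1* or to a gene that overlaps it was not tested.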

How the results depend on the processing

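No paired analysis was possible because SVZ and cortex had 1 library each, nor could a replicate be left out. No value changed direction under the alternatives run except the log2 ratio of *Arc*, which was 0.18 with SVZ thinned in place of -0.17, within its counting interval. Of the main counts and medians recomputed, 77 held and 21 moved, and of the ratios of single members 49 held and 7 moved. Over the scalings *Jun* ranged from 2.08 to 2.15 and *Junb* from -4.64 to -4.58 (log2), and the all-gene median shifted by -0.099 at most. Each rescaling shifts every log2 ratio by the same amount, and a pseudocount of 1 CPM draws the ratios of low genes towards equality. Thinning moves the bound of *Nr4a1* because the floor stays at 3 reads. Other minimums and folds change which genes count. Further causes of the following changes were not tested. The median log2 ratio of the members over the minimum was 0.52 with TMM, with upper-quartile scaling and with the size factors of DESeq2, 0.73 at a minimum of 10 CPM and 0.22 with no filter. The number of members 2-fold higher in the SVZ library was 2 with no filter. The number higher in the cortex library was 3 with no filter, a change small enough to be counted as held. It was 1 with a pseudocount of 1 CPM, at 4-fold or with the whole interval past 2-fold, and 0 at a minimum of 10 CPM. A pseudocount of 1 CPM moved *Fos* to 0.81, *Junb* to -1.74 and *Nr4a1* to -0.29 (log2), so the low members depend on it, and thinning the SVZ library moved *Nr4a1* to -0.74. Of all genes, 1341 and 1113 were 2-fold higher in the SVZ and the cortex library at a minimum of 10 CPM, and 1300 and 893 were 4-fold higher. The later activity genes had a median of -3.01 under TMM and -3.02 under upper-quartile scaling. The heat shock genes had 0.043 and 0.037, and 0 of them passed 2-fold under these scalings or in the stranded sum.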
